A study of Mus musculus with 6 samples.

Results

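Semaphorins are a family of guidance ligands, secreted or held in the membrane, which act through plexin receptors on neighbouring cells. The secreted class 3 members mostly need a neuropilin as the binding subunit of the receptor, and neuropilins also bind vascular endothelial growth factors. The activated plexin acts on small GTPases and on the actin cytoskeleton, and the system is best known for steering axons, among them those that innervate teeth, and for shaping blood vessels. The genes described here were the rows of the deposited expression table whose symbol named a class 3 to class 7 semaphorin, a plexin or a neuropilin. These were 31 of 23718 listed genes, namely 20 semaphorins, 9 plexins and 2 neuropilins.

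RNA was sequenced from the incisor, an organ that grows throughout life, of mice aged 1 month. The labels give the strain as C57BL/6, while the study's methods speak of a mixed background. The MSC group (mesenchymal stem cells, 3 libraries) came from Gli1-CreER;tdT mice and the TAC group (transit amplifying cells, the dividing progeny of the stem cells, 3 libraries) from Axin2-CreER;tdT mice, in which the Gli1 or Axin2 promoter drives a tamoxifen-dependent Cre that turns on a red reporter. All mice were given tamoxifen 1 day before collection, and reporter-positive regions were cut from sections by laser capture microdissection, so that any other cell lying in the cut region was collected too. The groups therefore differ in driver allele as well as in cell population, which cannot be told apart. The study's methods give 3 mice per group, but no label ties a library to a mouse, so p-values measure only the spread between these libraries. In such bulk samples fewer cells of a type and less RNA per cell cannot be told apart either.

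Replicate 3 of each group stood apart from the other libraries. It held 59793645 estimated reads in MSC and 108156380 in TAC, while the libraries of replicates 1 and 2 held 20203159 to 25567244. In those libraries 6.89% to 8.36% of listed genes had 0 reads, a share that was 43.1% for MSC and 28.3% for TAC in replicate 3. The semaphorin, plexin and neuropilin genes together took 0.168% to 0.193% of the estimated reads of each library. For this reason changes are also given within replicates 1 and 2 and within replicate 3.

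The 2 genes that gave the groups their labels overlapped between them when values were compared without regard to replicate number. Gli1, a hedgehog target, was at 256, 245 and 422 in MSC replicates 1, 2 and 3 and at 153, 141 and 396 in TAC replicates 1, 2 and 3, so that MSC was the higher at each number (adjusted p = 0.718, and 0.203 with the replicate block). Axin2, a WNT target, was at 58.3, 48.0 and 12 in MSC and at 56.8, 63.9 and 34.1 in TAC, and was higher in TAC at numbers 2 and 3 only. The 6 proliferation markers summed to 84.2 to 194 in MSC and 281 to 932 in TAC, 5 of them without overlap. Of the 6 mesenchymal markers, each was read in all 6 libraries, and they differed in direction. Vim and Prrx1 were higher in MSC without overlap, Prrx1 at 102, 103 and 124 against 64.2, 63.8 and 50.9, Msx1 was higher in TAC without overlap at 136 to 150 against 52.8 to 114, and 3 overlapped. The summed epithelial markers ran from 299.7 to 3657 and the summed odontoblast markers from 763 to 5173, both lowest in MSC replicate 3. Amelx led the epithelial sum in replicates 1 and 2 and Ambn in replicate 3, while Dspp led the odontoblast sum in every library. Epcam, Cdh1 and Dmp1 had 0 reads in MSC replicate 3. Osteoclast markers summed to 12.2 to 40.7.

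Values here are the deposited normalized values, which are read numbers scaled per library and not divided by gene length. They compare 1 gene between libraries. Fold changes are on the log2(value + 1) scale, TAC minus MSC, and so a negative value is a higher level in MSC and low genes are understated. Tests used limma across the 15391 genes with a mean value of at least 1, with Benjamini-Hochberg adjustment over all of them. Of the 31 genes, 30 reached that mean and Plxnb3 did not.

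Among those 30 genes, Sema3g passed the adjusted threshold of 0.05 and was lower in TAC, where 0.422% of all genes tested passed. A further 5 genes had an unadjusted p-value under 0.05. Of the 6 in all, Sema3b, Sema3g, Sema4a, Sema5b and Sema6c were higher in MSC and Sema5a was higher in TAC. These 6 are 20.0% of the 30 genes, against 11.9% of all genes tested. Those 5 higher in MSC are 16.7%, against 6.43% of all genes, and the 1 higher in TAC is 3.33%, against 5.42%. The 3 MSC and 3 TAC values did not overlap for 11 of the 30 genes, or 36.7%, against 24.5% of all genes. Of these, 10 were higher in MSC, or 33.3% against 12.2%, and Sema5a alone was higher in TAC, or 3.33% against 12.3%. The median log2 fold change was -0.25 over the 30 genes and 0.026 over all genes tested, with -0.48 to -0.15 over the 30 genes when each library was left out and -0.50 within replicates 1 and 2, and 18 of the 30 had a negative value, or 60.0% against 48.5%.

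The libraries' pairing by replicate number moved one of these counts. With the replicate block in the model, 14 of the 30 genes had an unadjusted p-value under 0.05, 12 of them with the higher level in MSC and 2 in TAC, against 20.4% of all genes. The 8 added were Sema3f, Sema4f, Sema4g, Sema6d, Plxna2, Plxna4 and Nrp1, with the higher level in MSC, and Plxna1, with the higher level in TAC. Sema3g was again the gene past the adjusted threshold in that fit (adjusted p = 0.0442), where 1.49% of all genes passed. With the library set as a term instead, 9 of the 30 passed the adjusted threshold, against 11.8% of all genes. These were Nrp1, Plxna2, Sema3b, Sema3g, Sema4a, Sema4g, Sema5b and Sema6c, which were higher in MSC, and Sema5a, which was higher in TAC.

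**Figure D1:**
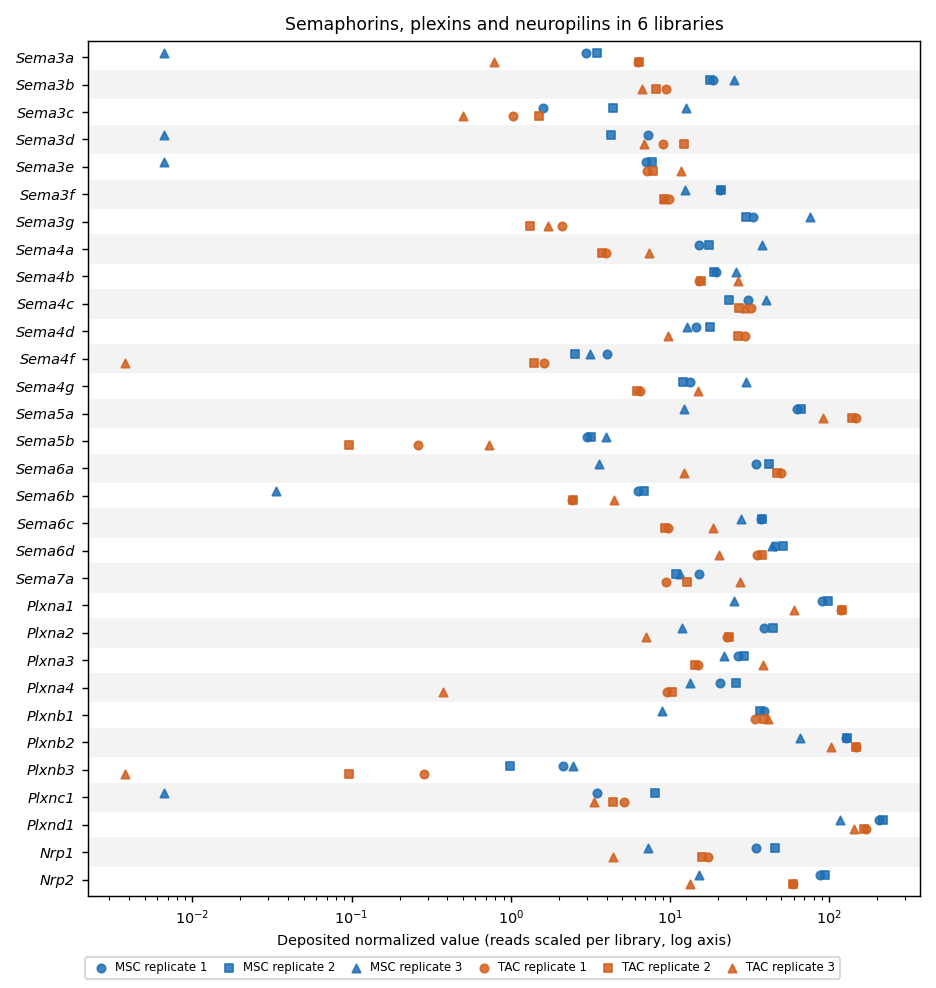
Deposited normalized value (horizontal log axis, reads scaled per library) of each of the 31 genes in the 6 libraries, with MSC in blue and TAC in orange and 1 symbol shape for each replicate number. Sema3g has its MSC points at 30.2 to 75.5 and its TAC points at 1.32 to 2.10, and for Sema3a, Sema3d, Sema3e and Plxnc1 the MSC replicate 3 point lies at the value of 0 reads.

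Among the secreted class 3 semaphorins, 4 of 7 were without overlap between the groups, and all 4 were higher in MSC, where 12.2% of all genes were. Sema3g, which has been described in endothelial cells and signals through neuropilins, lies on mm10 at chr14:31217860-31230350, plus strand. Its value was 33.2, 30.2 and 75.5 in MSC replicates 1, 2 and 3, from 1245, 1040 and 11345 estimated reads. In TAC replicates 1, 2 and 3 it was 2.10, 1.32 and 1.72, from 95, 54 and 452 estimated reads. Every MSC library was thus far above every TAC library, and MSC replicate 3 was the highest. The MSC mean was 46.3 ± 25.4 (SD, n = 3), which was 27.0 times the TAC mean of 1.71 ± 0.392 (SD, n = 3). The log2 fold change was -4.01 with a standard error of 0.48 (limma adjusted p = 0.0350). It was -3.61 within replicates 1 and 2 and -4.82 within replicate 3. The call was lost when MSC replicate 1 (adjusted p = 0.223), MSC replicate 2 (0.229), TAC replicate 1 (0.153), TAC replicate 2 (0.202) or TAC replicate 3 (0.0782) was left out, and kept without MSC replicate 3, while the log2 fold change stayed between -4.25 and -3.60.

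Markers of vessel wall cells moved in the same libraries as Sema3g. The 6 smooth muscle and pericyte markers summed to 578 to 1350 in MSC and 63.8 to 65.8 in TAC, with all 6 lower in TAC without overlap and 3 of them (Acta2, Myh11 and Rgs5) past the adjusted threshold, Acta2 not with the replicate block (adjusted p = 0.0701). The 8 endothelial markers summed to 199 to 310 in MSC and 100 to 110 in TAC, with 8 of 8 lower in TAC and 6 without overlap. Their defining markers were not at 0 in TAC, where Pecam1 was at 15.7 to 18.2 and Cdh5 at 18.7 to 30.6. In both lists MSC replicate 3 had the highest sum, as it had the highest Sema3g, with Rgs5 the largest part of the smooth muscle and pericyte sum. Myh11, Tek and Tie1 went the other way and were lowest there among the MSC libraries, Myh11 at 204, 205 and 106 in MSC replicates 1, 2 and 3. The other markers of both lists were highest there. The part of these cells in the change of Sema3g was not tested.

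**Figure D2:**
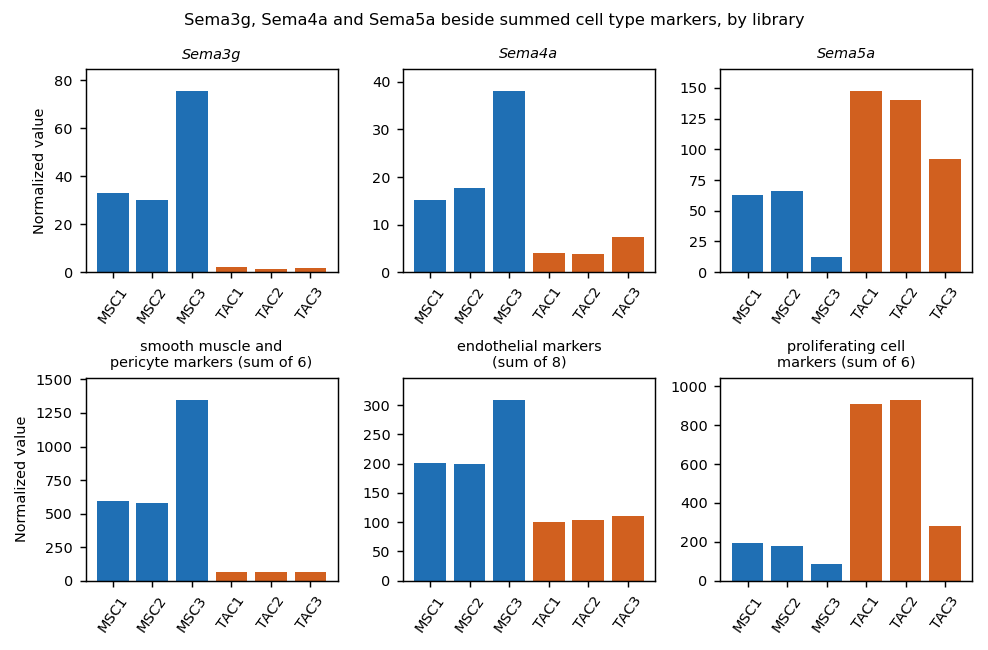
Normalized value in each library (vertical axes from 0, MSC bars blue and TAC bars orange) for Sema3g, Sema4a and Sema5a in the upper row and, in the lower row, for the summed markers of smooth muscle and pericytes, endothelium and proliferating cells. The smooth muscle and pericyte sum runs from 578 to 1350 in MSC and from 63.8 to 65.8 in TAC, and the proliferation sum from 84.2 to 194 in MSC and from 281 to 932 in TAC.

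Sema3b and Sema3f lie near each other on chromosome 9, at chr9:107597674-107609229 and chr9:107681500-107710475, both on the minus strand. Sema3b was at 18.7, 17.9 and 25.1 in MSC and at 9.44, 8.18 and 6.69 in TAC. All 3 MSC values were above all TAC values, with a ratio of means of 2.54. Its log2 fold change was -1.24 with a standard error of 0.35 (limma adjusted p = 0.219), at -0.98 in replicates 1 and 2 and -1.76 in replicate 3. Sema3f, a ligand of the neuropilin-2 receptor, was at 20.7, 20.9 and 12.4 in MSC and at 9.83, 9.16 and 9.19 in TAC. The TAC libraries were close to each other and all lay below MSC replicate 3, the lowest of the MSC group. Its log2 fold change was -0.83 with a standard error of 0.37 (limma adjusted p = 0.435), at -1.05 in replicates 1 and 2 and -0.39 in replicate 3.

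The other 4 class 3 genes lie on chromosome 5, in the order Sema3d, Sema3a, Sema3e and Sema3c between 12383385 and 17730268. Sema3c, which acts in the remodelling of the cardiac outflow tract, was at 1.60, 4.38 and 12.7 in MSC and at 1.03, 1.51 and 0.50 in TAC. The groups did not overlap, but MSC replicate 1 lay just above the highest TAC value and MSC replicate 3 was far above the rest. Its log2 fold change was -1.55 with a standard error of 0.71 (limma adjusted p = 0.457), at -0.73 in replicates 1 and 2, -3.19 in replicate 3 and -0.92 without MSC replicate 3. Its neighbours had positive values, 1.53 for Sema3d, 1.23 for Sema3e and 0.81 for Sema3a, none with an unadjusted p-value under 0.05. Sema3a, the classical collapsing factor of growth cones, was at 2.98 and 3.48 in MSC replicates 1 and 2 and at 6.33 and 6.40 in the same replicates of TAC. In TAC replicate 3 it was at 0.789, below MSC replicates 1 and 2, and MSC replicate 3 had 0 reads of it. Sema3e, which binds plexin D1 without a neuropilin, was at 7.06 to 7.77 in replicates 1 and 2 of MSC and at 7.16 to 7.79 in those of TAC, a log2 fold change of 0.011.

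Sema3a, Sema3d, Sema3e and Plxnc1 had 0 estimated reads in MSC replicate 3 and Sema6b had 4, while each of these genes had at least 50 in every other library. By the spread of sampling alone, a count of 0 allows up to 3 reads. That bound does not cover other ways in which a library can miss a gene, and 43.1% of listed genes had 0 reads in MSC replicate 3. These 5 are 16.7% of the 30 genes, and 9.66% of all genes tested had fewer than 10 reads in MSC replicate 3 with at least 50 in every other library. With that library alone left out, the log2 fold change was 0.12 for Sema3a, 0.62 for Sema3d, 0.21 for Sema3e, -0.28 for Plxnc1 and -0.92 for Sema6b. With both libraries of replicate 3 left out, it was 0.80 for Sema3a, 0.81 for Sema3d, 0.011 for Sema3e, -0.14 for Plxnc1 and -1.14 for Sema6b. Sema3a thus had nearly its pooled value of 0.81 in replicates 1 and 2.

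Class 4 semaphorins are membrane proteins, several of which bind B-type plexins. Sema4a, known from immune cells and vessels, lies at chr3:88435959-88461182 on the minus strand. It was at 15.3, 17.6 and 38.1 in MSC and at 3.96, 3.74 and 7.34 in TAC. All MSC libraries were above all TAC libraries, with replicate 3 the highest in each group. The means were 23.6 ± 12.5 (SD, n = 3) and 5.01 ± 2.01 (SD, n = 3), a ratio of 4.72. Sema4a had a log2 fold change of -1.97 with a standard error of 0.49 (limma adjusted p = 0.179), close in the library sets at -1.84 and -2.23. The summed macrophage markers ran from 73.5 to 177 in MSC and from 42.6 to 103 in TAC, with 4 of 8 without overlap, Ptprc among them. The endothelial markers given beside Sema3g, 8 of 8 lower in TAC, were likewise highest in MSC replicate 3 by their sum. Among them Tek and Tie1 were lowest there among the MSC libraries. The part of macrophages and of endothelium in the Sema4a values was not tested.

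Sema4f was at 4.0, 2.52 and 3.13 in MSC and at 1.62, 1.39 and 0.00379 in TAC, where the last value stands for 0 reads. The groups did not overlap, and the log2 fold change was -1.18 with a standard error of 0.58 (limma adjusted p = 0.489), at -0.75 in replicates 1 and 2, -2.04 in replicate 3 and -0.74 without TAC replicate 3. Sema4g ran from 12 to 30.2 in MSC and from 6.16 to 15.0 in TAC, with log2 fold changes of -0.90 in replicates 1 and 2 and -0.96 in replicate 3. Its groups overlapped only because TAC replicate 3 was above MSC replicates 1 and 2. Sema4b, Sema4c and Sema4d, the last a ligand of plexin B1, had log2 fold changes from -0.18 to 0.39 and adjusted p-values from 0.811 to 0.972, and each of them had opposite signs in the library sets.

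The class 5 pair, membrane proteins with thrombospondin repeats, went in opposite directions. Sema5a, whose described receptors include plexin B3, lies at chr15:32244813-32696341 on the plus strand. It was at 62.7, 66.2 and 12.2 in MSC and at 147, 140 and 91.9 in TAC. Every TAC library was above every MSC library, and replicate 3 was the lowest in each group. The TAC mean was 126 ± 30.2 (SD, n = 3), which was 2.69 times the MSC mean of 47.1 ± 30.2 (SD, n = 3). The log2 fold change was 1.70 with a standard error of 0.63 (limma adjusted p = 0.352), at 1.14 within replicates 1 and 2 and 2.81 within replicate 3. All 6 proliferation markers were higher in TAC at an unadjusted 0.05, with sums that were likewise lowest in replicate 3 of each group. Within TAC this held for Mki67, Top2a and Ccnb1, while Cdk1, Bub1 and Aurkb were highest in replicate 3. The part of dividing cells in the Sema5a values was not tested. The 7 epithelial markers were also all higher in TAC by their log2 fold changes, 4 of them without overlap (Krt14, Krt5, Epcam and Cdh1) but Amelx and Enam only through replicate 3 (-0.21 and -0.073 in replicates 1 and 2), with Epcam at 0.00666 to 1.23 in MSC and 2.26 to 6.68 in TAC, and the part of epithelium was not tested either. Without MSC replicate 3 the log2 fold change of Sema5a was 0.93. An antisense gene, 4930465K09Rik, overlaps Sema5a in the annotation, and since no use of strand was stated their reads cannot be told apart. This limit is not particular to Sema5a. Another annotated gene overlaps 18 of the 31 genes, on the opposite strand for Sema5b, Sema6d, Plxna1 and Nrp2 among others. Sema5b, at chr16:35541145-35664732, was at 3.01, 3.19 and 3.96 in MSC and at 0.263, 0.0959 and 0.728 in TAC, where it rested on 11, 3 and 191 estimated reads. Its groups were well apart, with a ratio of means of 9.35. Its log2 fold change was -1.71 with a standard error of 0.49 (limma adjusted p = 0.228), at -1.80 and -1.52 in the library sets. Plxnb3, the gene of the plexin B3 receptor, was below the filter and had no test. It was at 2.13, 0.985 and 2.45 in MSC and at 0.285, 0.0959 and 0.00379 in TAC, so that its groups did not overlap either and its TAC values came from 12, 3 and 0 reads.

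The sequences before the starts of Sema3g and Sema5a are shown because these genes had the strongest negative and positive log2 fold changes of the 30. Each is the 250 bases before the RefSeq start on GRCm38.p6, plus strand, at chr14:31217623-31217872 and chr15:32244563-32244812, with capitals marking GC boxes (GGGCGG on either strand, overlapping copies joined). The Sema3g window reaches into the first bases of the gene as the table places it, and the Sema5a window ends just before it.
Sema3g: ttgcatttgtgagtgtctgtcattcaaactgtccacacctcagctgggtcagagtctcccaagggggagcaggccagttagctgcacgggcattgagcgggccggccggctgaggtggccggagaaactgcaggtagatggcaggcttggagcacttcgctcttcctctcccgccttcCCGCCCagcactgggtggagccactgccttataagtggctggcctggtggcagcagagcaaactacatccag
Sema5a: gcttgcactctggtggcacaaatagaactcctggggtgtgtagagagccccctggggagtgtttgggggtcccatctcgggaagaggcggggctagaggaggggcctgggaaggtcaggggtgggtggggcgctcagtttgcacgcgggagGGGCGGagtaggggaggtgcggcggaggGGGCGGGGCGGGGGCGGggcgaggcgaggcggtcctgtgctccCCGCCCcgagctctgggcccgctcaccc
The Sema3g window held 1 GC box and 8 CpG sites at 60.4% GC, and the Sema5a window 5 GC boxes and 17 CpG sites at 72.0% GC. Over 32851 such windows the median was 6 CpG sites and 52.4% GC, and 32.7% held a GC box. Neither window held the GLI motif GACCACCCA (0.225% of windows), the TCF/LEF motif CTTTGA (13.8%), a CArG box (1.47%) or TATAAA (12.4%) on either strand. These are matches of letters only.

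Class 6 semaphorins are membrane ligands of A-type plexins. Sema6c, at chr3:95160457-95174024 on the plus strand, was at 37.5, 37.7 and 28.1 in MSC and at 9.74, 9.28 and 18.6 in TAC. All MSC values were above all TAC values, and the libraries labelled replicate 3 lay nearest to each other. The means were 34.4 ± 5.50 (SD, n = 3) and 12.5 ± 5.25 (SD, n = 3), a ratio of 2.74. For Sema6c the log2 fold change was -1.44 with a standard error of 0.37 (limma adjusted p = 0.180), at -1.88 in replicates 1 and 2 and -0.57 in replicate 3. Sema6d was at 45.4, 51.6 and 43.6 in MSC and at 35.0, 37.7 and 20.3 in TAC. The groups did not overlap, and the log2 fold change was -0.63 with a standard error of 0.32 (limma adjusted p = 0.501), at -0.41 in replicates 1 and 2, -1.07 in replicate 3 and -0.36 without TAC replicate 3.

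Sema6b turned direction between the library sets. It was at 6.34, 6.84 and 0.0333 in MSC and at 2.43, 2.45 and 4.44 in TAC. In replicates 1 and 2 MSC was the higher group, with a log2 fold change of -1.14, while in replicate 3 TAC was, with 2.40. The difference between the sets was not tested. Sema6a ran from 3.59 to 41.8 in MSC and from 12.3 to 49.8 in TAC, with positive log2 fold changes in both sets of 0.34 and 1.53. Sema7a, the lipid-anchored class 7 ligand that binds plexin C1 and integrins, ran from 11.0 to 15.1 in MSC and from 9.46 to 27.7 in TAC, with opposite signs in the sets.

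Of the 8 plexins tested, limma gave 0 an unadjusted p-value under 0.05, and with the replicate block 3 (Plxna1, Plxna2 and Plxna4) had one, against 11.9% and 20.4% of all genes. Plxna4 was the one whose groups did not overlap. Plxna4, a receptor subunit for class 3 and class 6 semaphorins at chr6:32144268-32588192 on the minus strand, was at 20.6, 26 and 13.3 in MSC and at 9.63, 10.3 and 0.375 in TAC. TAC replicate 3 was far below the other TAC libraries, with 98 estimated reads. The log2 fold change was -1.89 with a standard error of 0.85 (limma adjusted p = 0.446), at -1.14 in replicates 1 and 2, -3.38 in replicate 3 and -0.89 without TAC replicate 3. Annotated antisense transcripts (Plxna4os1, Plxna4os2 and Plxna4os3) overlap this gene. The other A-type plexins differed among themselves. Plxna1 ran from 25.4 to 98.4 in MSC and from 60.3 to 120 in TAC, and had positive log2 fold changes in both sets of 0.34 and 1.22. Plxna2 ran from 11.9 to 44.7 in MSC and from 7.08 to 23.6 in TAC, and had negative ones of -0.82 and -0.67. Plxna3 was at -0.87 in replicates 1 and 2 and 0.80 in replicate 3.

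The B-type, C-type and D-type plexins had log2 fold changes from -0.12 to 0.66 and adjusted p-values from 0.701 to 0.940. Plxnb2, a receptor of class 4 semaphorins, ran from 65.5 to 129 in MSC and from 103 to 147 in TAC. Plxnd1, a vascular plexin that binds Sema3e, ran from 118 to 217 in MSC and from 144 to 170 in TAC, with all TAC values inside the MSC range. Plxnb1 was at 8.93 in MSC replicate 3 and at 34.4 to 41.2 in the other 5 libraries.

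Both neuropilins had lower values in TAC than in MSC at each replicate number, with the groups overlapping because MSC replicate 3 lay below TAC replicates 1 and 2. The endothelial and the smooth muscle and pericyte markers given beside Sema3g were also lower in TAC by their log2 fold changes. Their sums were highest in MSC replicate 3, the MSC library with the lowest neuropilin values. The part of these cells in the neuropilin values was not tested. Nrp1, which also binds VEGF-A, was at 34.6 and 45.6 in MSC replicates 1 and 2 and at 17.3 and 15.9 in those of TAC. In replicate 3 it was at 7.30 in MSC and 4.37 in TAC. The log2 fold change was -1.02 with a standard error of 0.77 over all libraries (limma adjusted p = 0.674), -1.21 in replicates 1 and 2 and -0.63 in replicate 3. With each library left out the log2 fold change of Nrp1 ran from -1.78 to -0.45. With the library set as a term it passed the adjusted threshold (limma adjusted p = 0.0447), but not with the replicate block (0.148) or with replicates 1 and 2 averaged (1.00). Nrp2, which also binds VEGF-C, was at 87.2 and 93.8 in MSC replicates 1 and 2 and at 59.0 and 59.7 in those of TAC, against 15.1 and 13.3 in replicate 3. Its log2 fold change was -0.46 with a standard error of 0.84 (limma adjusted p = 0.895).

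**Figure D3:**
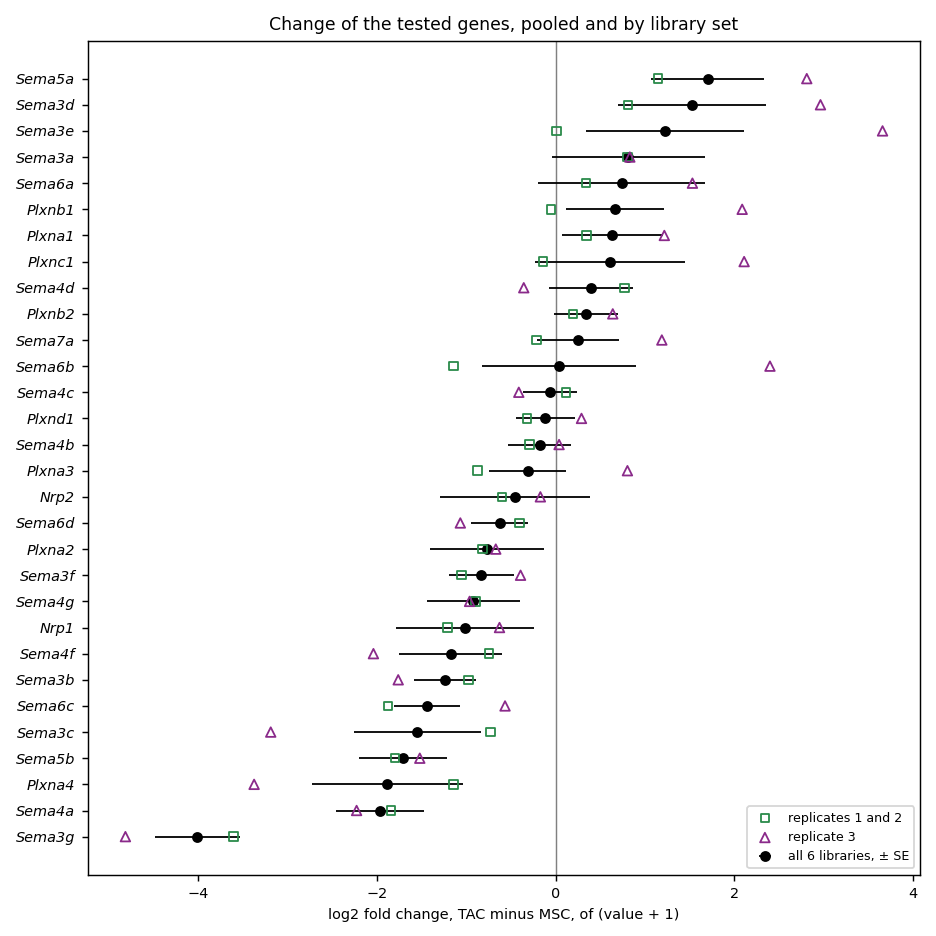
Log2 fold change of value + 1, TAC minus MSC (horizontal axis), of the 30 tested genes in order of size, with black points and bars for the estimate ± standard error over all 6 libraries, green squares for replicates 1 and 2 and purple triangles for replicate 3. Sema3g lies at -4.01 and Sema5a at 1.70, and for Sema6b the square at -1.14 and the triangle at 2.40 lie on either side of 0.

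Across the 30 genes, 21 had the same sign in both library sets, 14 of them lower and 7 higher in TAC, and 9 had opposite signs, or 30.0% against 38.8% of all genes tested. The 9 were Sema4b, Sema4c, Sema4d, Sema6b, Sema7a, Plxna3, Plxnb1, Plxnc1 and Plxnd1, so that none of the class 3 or class 5 semaphorins and neither neuropilin was among them. However, Sema3a, Sema3d, Sema3e and Plxnc1 had 0 estimated reads in MSC replicate 3, so that their sign in replicate 3 could only be positive. Sema3e counted as the same sign with a log2 fold change of 0.011 in replicates 1 and 2. Within replicates 1 and 2 alone, where the libraries of a group lay close together, 23 of the 30 genes passed the adjusted threshold, against 44.2% of all genes. Of these, 16 were higher in MSC, where 24.2% of all genes were, and 7 were higher in TAC, where 20.0% were.

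Levels can be set between genes only after division by length, and here the deposited value was divided by the exon length of the gene in GENCODE M21. Of the 31 genes, 27 had the same start, end and strand there as in the table, and Sema3g, Sema4d, Sema5a and Plxnb2 did not. Plxnd1 had the highest level per kb in each of the 6 libraries, with an MSC mean of 26 ± 7.83 (SD, n = 3) and a TAC mean of 23.2 ± 2.08 (SD, n = 3). Plxnb2 was next in 5 libraries, with means of 16.4 ± 5.57 (SD, n = 3) and 20.2 ± 3.93 (SD, n = 3), and stood behind Sema3g in MSC replicate 3. The order of the ligands differed between the groups. By the MSC mean Sema3g was the highest semaphorin, at 10.2 ± 5.59 per kb (SD, n = 3), followed by Sema6c at 8.17 ± 1.31 (SD, n = 3) and Sema4c at 7.39 ± 1.91 (SD, n = 3), which did not differ beyond their spread. The place of Sema3g came from MSC replicate 3, at 16.6 per kb, since it was at 7.31 and 6.64 in replicates 1 and 2, below Sema6c at 8.90 and 8.95. By the TAC mean Sema5a was the highest semaphorin, at 11.7 ± 2.79 per kb (SD, n = 3), followed by Sema4c at 6.94 ± 0.598 (SD, n = 3), and Sema3g ranked 27 of 31 at 0.377 ± 0.0863 (SD, n = 3). Sema4c directly followed Sema5a in TAC replicate 1 only. It stood behind Sema6a in TAC replicate 2 (6.33 against 6.34) and behind Sema7a in TAC replicate 3 (6.97 against 8.40). Plxnb3 was the lowest of the 31 by both means.

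**Figure D4:**
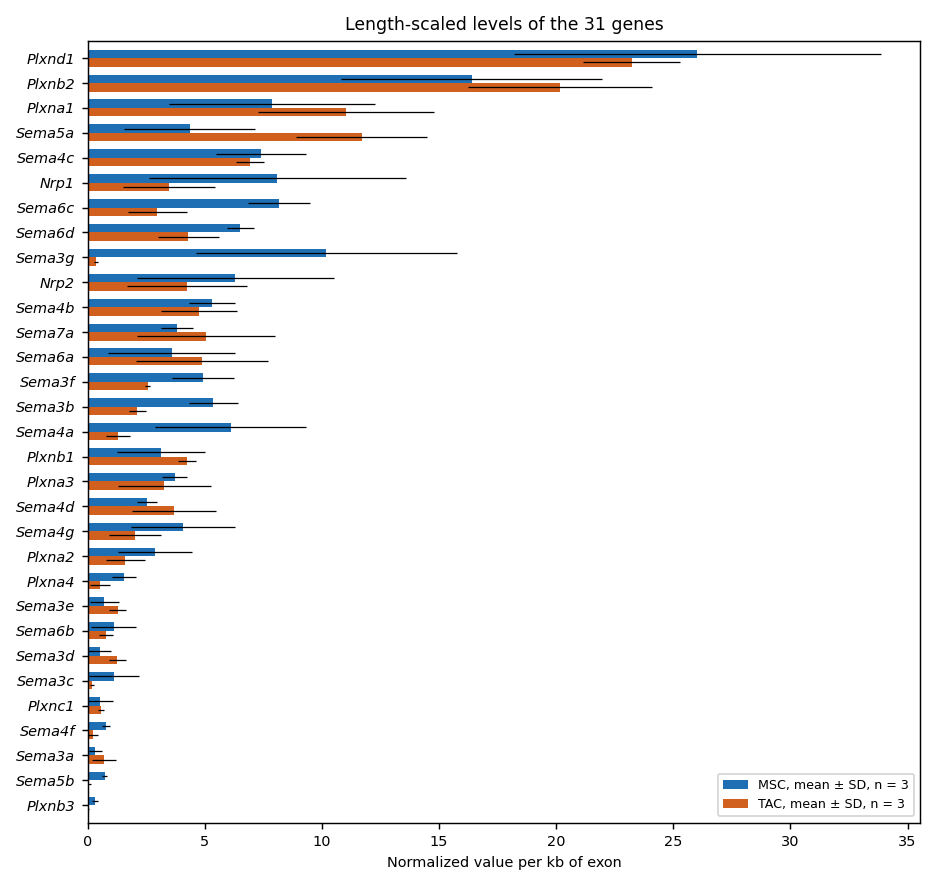
Mean normalized value per kb of exon (horizontal axis from 0) of the 31 genes in MSC (blue) and TAC (orange), ordered by the mean of the 6 libraries, with bars of 1 SD over n = 3 libraries. Plxnd1 and Plxnb2 are at the top in both groups, and Sema3g has an MSC bar of 10.2 beside a TAC bar of 0.377.

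Other genes of the pathway were counted from lists of partners and effectors, and 0 of the 52 tested passed the adjusted threshold of limma, where 0.422% of all genes did. An unadjusted p-value under 0.05 was found for 13, against 11.9% of all genes, and 3 (Cspg4, Dpysl3 and Cfl1) passed the adjusted threshold with the replicate block, against 1.49% of all genes. Of 15 coreceptors and binding partners tested, 4 had an unadjusted p-value under 0.05 with a lower level in TAC and 1 with a higher one. The 4 were L1cam and Cspg4, and Flt1 and Flt4, which encode receptors of vascular endothelial growth factors. Kdr, a further receptor gene of these growth factors, had a log2 fold change of 0.0015, at 0.47 in replicates 1 and 2 and -0.93 in replicate 3. L1cam, an adhesion molecule that joins neuropilin-1 in the Sema3a receptor, was at 2.48, 4.95 and 3.63 in MSC and at 0.109, 0.839 and 0.0948 in TAC (log2 fold change -1.81). The Schwann cell markers, a cell type that also carries L1cam, summed to 26.5 to 52.9 in MSC and 8.87 to 19.3 in TAC, with 6 of 6 tested lower in TAC and Sox10 at 3.49 to 5.62 against 0.00379 to 0.504, and their part in the L1cam values was not tested. Nrcam, its relative, went the other way, at 2.90, 1.71 and 0.00666 in MSC and 9.20, 10.8 and 5.55 in TAC (log2 fold change 2.07). Flt4 had a log2 fold change of -1.53 (limma adjusted p = 0.148) and Flt1 one of -1.08. Both are found on endothelium, whose 8 markers were all lower in TAC by their log2 fold changes (median -0.92, Pecam1 -1.59), and its part in these values was not tested. Cspg4, a proteoglycan also used as a pericyte marker, was at 125, 135 and 77.0 in MSC and at 48.5, 47.9 and 26.2 in TAC, a log2 fold change of -1.45 that passed the adjusted threshold with the replicate block (adjusted p = 0.0442) and not without it (0.179).

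Among the 5 neuropilin-binding growth factors tested, Pgf, placental growth factor, had a log2 fold change of -1.47 and Vegfd one of 1.69, both without overlap between the groups (limma adjusted p = 0.316 and 0.342). Of 15 GTPases and regulators downstream of plexins, Rras, the GTPase that plexins inactivate, had a log2 fold change of -1.84 and Rac1 one of 0.72 (limma adjusted p = 0.340 and 0.303). These 4 genes were under 0.05 before adjustment, as no others of their lists were. Of 17 collapsin response proteins, MICAL oxidases and kinases, Mical1, Mical2 and Fes were lower and Dpysl3 was higher in TAC at the unadjusted threshold. Mical2, an enzyme that oxidises actin, was at 13.6, 16.2 and 19.8 in MSC and at 3.46, 2.93 and 3.18 in TAC. The log2 fold change was -2.06 with a standard error of 0.41 (limma adjusted p = 0.109). Its groups were far apart in both library sets. Dpysl3, a collapsin response mediator protein, was at 71.2, 75.2 and 61.0 in MSC and at 144, 153 and 120 in TAC (log2 fold change 1.00), and passed the adjusted threshold with the replicate block (adjusted p = 0.0481). Cfl1, cofilin, which severs actin filaments, had a log2 fold change of 1.09 and an adjusted p of 0.0442 with the block and 0.453 without it.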

How the data were processed

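Laser-captured incisor RNA was sequenced by the authors, single-end, and per the labels and methods reads went through CASAVA 1.8.2, TopHat 2.0.8 on mm10, and Partek. The methods name RPKM, but the deposited values behaved as a normalized signal: each library has a lowest value shared by genes of any length, and a value over that lowest value, minus 1, was taken as the estimated reads. Of values up to 50 reads, 63.2% to 72.4% were whole within 0.02, so no count model was the main test. Counting and strand use are not given in the sources used here.

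A linear model with a variance trend was fitted with limma 3.58.1 in R 4.3.3 to log2(value + 1) of 15391 genes, those whose mean reached 1 (two-sided, Benjamini-Hochberg adjustment), checked on simulated data. The simulated libraries shared the same spread and held no shift of replicate 3, so that check does not speak to the library sets. Same-numbered samples shared deviations from their group means (correlations 0.477, 0.465 and 0.517), by which the numbers pair the samples, although crossing numbers 1 and 2 gave much the same (0.462 and 0.480), so that these numbers were not told apart: the split was replicate 3 against replicates 1 and 2. Genes past either threshold, without overlap, or turning by at least 1 on each side between library sets were described in full, and other genes by ranges, or by values where a role called for them. The genes and lists were chosen with earlier results of these data known. Alternatives covered scaling, filters, pseudocount, variance model, block, library set, voom and each library left out. Motifs and starts came from the RefSeq promoter table.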

Additional observations from a re-analysis of the deposited data

How the results depend on the processing

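The counts for the 30 genes moved with how the library sets were treated. Past the adjusted threshold were 1 gene in the reported fit, 9 with the library set as a term, 23 with replicates 1 and 2 only, and 0 with replicates 1 and 2 averaged or with limma voom, and 0 to 1 with each library left out. Under an unadjusted 0.05 were 6 in the reported fit, 14 with the replicate block, 20 with the library set as a term, 24 with replicates 1 and 2 only, 3 with these averaged, 11 with voom, and 5 to 9 with each library left out. Without overlap were 11, then 25 with replicates 1 and 2 only, where fewer samples can overlap, and 12 to 21 with each library left out. The share without overlap over all genes was counted for the reported fit only (24.5%). The counts from fewer libraries therefore have no share of all genes to be read against. Over all genes tested the 65 calls became 43 at a pseudocount of 0.5, 114 with quantile normalization, 29 without the variance trend, 229 with the replicate block, 1814 with the library set as a term, 6796 with replicates 1 and 2 only, 10 with these averaged, 23 with voom and 0 to 280 with each library left out. At an unadjusted 0.05, of the 15391 genes tested 1824 were called in the reported fit, 3136 with the replicate block, 4554 with the library set as a term, 7983 with replicates 1 and 2 only, 615 with these averaged and 3575 with voom. With each library left out, 1029 to 3112 of 15160 to 15523 genes tested were called at that threshold. Sema3g lost its call averaged (adjusted p = 0.196) and with voom (0.0835), and its adjusted p ran from 0.0261 to 0.229 with each library left out.

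Of 532 refitted fold changes of single genes, 20 reversed, in 11 genes, and 19 genes had none that did. With replicates 1 and 2 only, the log2 fold change became -1.14 for Sema6b, -0.050 for Plxnb1, -0.14 for Plxnc1, 0.11 for Sema4c and -0.21 for Sema7a. With replicate 3 only it became 0.80 for Plxna3, 0.29 for Plxnd1, 0.037 for Sema4b and -0.36 for Sema4d, and quantile normalization gave -0.62 for Sema6b. With each library left out the values ran from -0.92 to 0.54 for Sema6b, -0.28 to 1.30 for Plxnc1, -0.25 to 0.12 for Sema4c, -0.17 to 0.56 for Sema7a, -0.40 to 0.041 for Plxnd1, -0.29 to 1.37 for Sema6a and -1.29 to 0.23 for Nrp2. Beyond the calls given with the results, the replicate block moved no gene named across the adjusted threshold. The median log2 fold change of all genes, 0.026 in the reported fit, became 0.14, 0.14 and -0.14 without MSC replicates 1, 2 and 3 and 0.14 without TAC replicate 3. The causes were not tested. Reads limit the lowest genes, such as Sema5b in TAC replicate 2 with 3.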
